A study of Mus musculus with 16 samples.

Results

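The genes followed here are 10 targets and partners of the integrated stress response of ATF4, chosen by name from the 31053 genes measured: the transcription factors Atf4, Ddit3, Atf3 and Atf5, the pseudokinase gene Trib3, the asparagine synthetase gene Asns, the serine synthesis genes Phgdh and Psat1, and the mitochondrial one-carbon genes Shmt2 and Mthfd2. They were chosen with earlier results of these data known, so shares above the background describe these genes and are not independent evidence. Each was matched by its symbol, all 10 were found, and all 10 passed the filter on low counts that left 10767 genes for testing. Their mRNA was measured in 16 samples of C2C12, a mouse myoblast line that fuses into myotubes in culture. There were 4 samples each of wild-type (WT) myoblasts, WT myotubes, Fam134b knockout (Fam134bKO) myoblasts and Fam134bKO myotubes, and no sample is labelled with a drug or another stressor. All 4 groups are C2C12 cells, and the labels give DMEM with 10% FBS for myoblasts and myotubes alike. The knockout line was made, per the study's methods, with lentiviral CRISPR-Cas9 against Fam134b, which encodes a membrane receptor for autophagy of the endoplasmic reticulum (ER), followed by antibiotic selection. The methods do not say whether it is 1 clone or whether the WT cells carried the vector, so the deletion and the history of the line cannot be told apart. The labels call the samples of a group biological replicates without saying what made them separate, and p-values measure the spread between these samples.

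In the integrated stress response, kinases that sense ER stress, amino acid shortage, viral RNA or haem shortage phosphorylate the translation factor eIF2alpha, which lowers general protein synthesis while the Atf4 mRNA is translated more. The ATF4 protein then pairs with other bZIP factors and raises genes for amino acid synthesis, uptake and tRNA charging, together with further regulators such as DDIT3 (also called CHOP) and TRIB3, which in turn restrains ATF4. Because ATF4 is controlled mainly at translation, the level of Atf4 mRNA and the level of its targets need not move together.

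On the GRCm38 build (mm10 in the labels), with GENCODE M21 annotation, the 10 genes are Atf4 (chr15:80255184-80257541, plus strand), Ddit3 (chr10:127290774-127296288, plus strand), Atf3 (chr1:191170296-191218039, minus strand), Atf5 (chr7:44812256-44816658, minus strand), Trib3 (chr2:152337422-152344032, minus strand), Asns (chr6:7675169-7693254, minus strand), Phgdh (chr3:98313170-98339990, minus strand), Psat1 (chr19:15904678-15947337, minus strand), Shmt2 (chr10:127517123-127522444, minus strand) and Mthfd2 (chr6:83305691-83325908, minus strand). All 10 are annotated as protein-coding. Promoter windows from RefSeq (GRCm38.p6), reaching from 250 bases before to 50 bases after each annotated start, were found for all 10 members, 12 windows in all. They were searched on both strands for the composite C/EBP-ATF element, to which ATF4 pairs bind, in its forms TGATGNAA and TGNTGCAAT, which overlap in sequence, and for the ER stress element, matched as CCAAT and CCACG spaced by 9 bases. TGATGNAA was found in the windows of Atf3, Trib3 and Asns and in 3.97% of all 32851 windows, and TGNTGCAAT in those of Trib3 and Psat1 and in 0.673% of all windows. At least 1 of these forms was present in 4 of 10 members and in 4.42% of all windows, while the ER stress element was present in 0 members and in 0.119% of all windows. Of these 4 genes, 3 were higher in Fam134bKO than in WT myoblasts, as were 7 of all 10 members. Among the 7 were Ddit3, Atf5, Shmt2 and Mthfd2, which had no match. The stretches around the matches upstream of the start are shown with the matched letters in capitals. Each stretch is read 5′ to 3′ on the minus strand, the strand of the gene.
Atf3 chr1:191183406-191183473: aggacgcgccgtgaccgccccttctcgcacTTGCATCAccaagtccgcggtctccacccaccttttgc
Trib3 chr2:152344061-152344123: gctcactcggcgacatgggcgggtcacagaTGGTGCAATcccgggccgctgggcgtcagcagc
Asns chr6:7693214-7693243: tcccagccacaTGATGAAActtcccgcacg
Psat1 chr19:15925157-15925225: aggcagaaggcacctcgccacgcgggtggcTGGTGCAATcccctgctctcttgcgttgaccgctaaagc
In Trib3 and Psat1 the same 9 letters were matched, beginning 33 and 136 bases before the start respectively, and in Atf3 the match lies on the opposite strand. The match in Asns begins 23 bases before the RefSeq start and lies inside an exon that GENCODE annotates, so only the site is shown. A further match to TGATGNAA in Trib3 begins at base 15 after the start. A match is a description of the letters in these windows, and binding was not measured.

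Between 1484750 and 3287461 reads were counted on genes per sample, and the shallowest libraries were Fam134bKO myotube replicates 4 and 2 (1484750 and 1790524 reads), in a group of 1484750 to 2947336 reads against 2926807 to 3287461 in Fam134bKO myoblasts. Levels are given as normalised read counts (the deposited log2 value taken back to the linear scale), and a level of 3 reads, taken here as the limit of detection, corresponds to 2.49 to 5.99 normalised counts. This limit covers counting error only. Fam134b itself was at 207 ± 42.0 (mean ± SD, n = 4 in this and every group) in WT myoblasts, 232 ± 61.6 in WT myotubes, 27.5 ± 5.49 in Fam134bKO myoblasts and 41.8 ± 14.0 in Fam134bKO myotubes (log2 fold change -2.86 in myoblasts, limma adjusted p = 2.95e-08), although reads do not show where the gene was cut. The myogenic markers also differed between the lines. Of 13 listed genes in the data, 12 were tested and 11 were lower in Fam134bKO than in WT myoblasts, beside 8.50% of all genes tested. Their summed level was 286 to 387 against 2732 to 4021, and Myog and Pax7 had no read in Fam134bKO myoblasts. The remaining tested gene, Myf5, lay higher, at 107 to 118 against 59.8 to 82.0. It had an unadjusted p under 0.05 (limma) but was not called. In Fam134bKO myotubes 8 of these 12 were lower than in WT myotubes (12526 to 16628 against 29223 to 43078), beside 13.7% of all genes tested. Of 10 proliferation genes, 0 passed the limma test between the myoblasts (1 at an unadjusted p under 0.05), beside 15.8% of all genes tested. Between the myotubes 7 were lower in Fam134bKO than in WT (1062 to 1916 against 2481 to 4125), beside 13.7% of all genes tested. The part of these differences in the values below was not tested, and in bulk RNA fewer cells of a type and less RNA per cell cannot be told apart. Few of the 7 fibroblast, 7 adipocyte and 7 osteoblast and chondrocyte genes had enough reads to be tested (3, 3 and 2). Of these 1, 2 and 1 were higher in Fam134bKO than in WT myoblasts and 0 lower, beside 7.26% and 8.50% of all genes tested.

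The first comparison asked how these genes differed between Fam134bKO and WT myoblasts. Of the 10 members, 7 were higher in Fam134bKO than in WT myoblasts and 0 were lower, at a Benjamini-Hochberg adjusted p under 0.05 over all genes tested (limma), where 15.8% of all genes tested were called, 7.26% higher and 8.50% lower. These were Trib3 (log2 fold change 2.58), Ddit3 (1.80), Asns (1.50), Atf5 (1.14), Mthfd2 (0.79), Psat1 (0.64) and Shmt2 (0.57). The values of the other members were also above 0, with 1.02 for Atf3, 0.16 for Atf4 and 0.08 for Phgdh, and none of these passed the test. At an unadjusted p under 0.05 limma gave 8 higher, with Atf3 added, and 0 lower, and limma voom on the recovered reads called 7 higher and 0 lower. The median over the 10 members was 0.90 and that over all genes tested -0.01. In 8 members all 4 Fam134bKO samples lay above all 4 WT samples, which held for 12.8% of all genes tested (26.8% were fully separated in either direction).

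In myotubes the members did not share a direction between the genotypes. Ddit3 and Mthfd2 were higher in Fam134bKO than in WT myotubes and Atf4 was lower, 3 of 10 members called against 23.4% of all genes tested, a share near this background (9.74% were higher and 13.7% lower). The median over the members was 0.03, beside -0.07 for all genes tested. Only Ddit3 was fully separated upward (such genes made up 8.52% of those tested), and Atf4 and Phgdh were fully separated downward (10.8%, 19.4% in either direction).

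**Figure D1:**
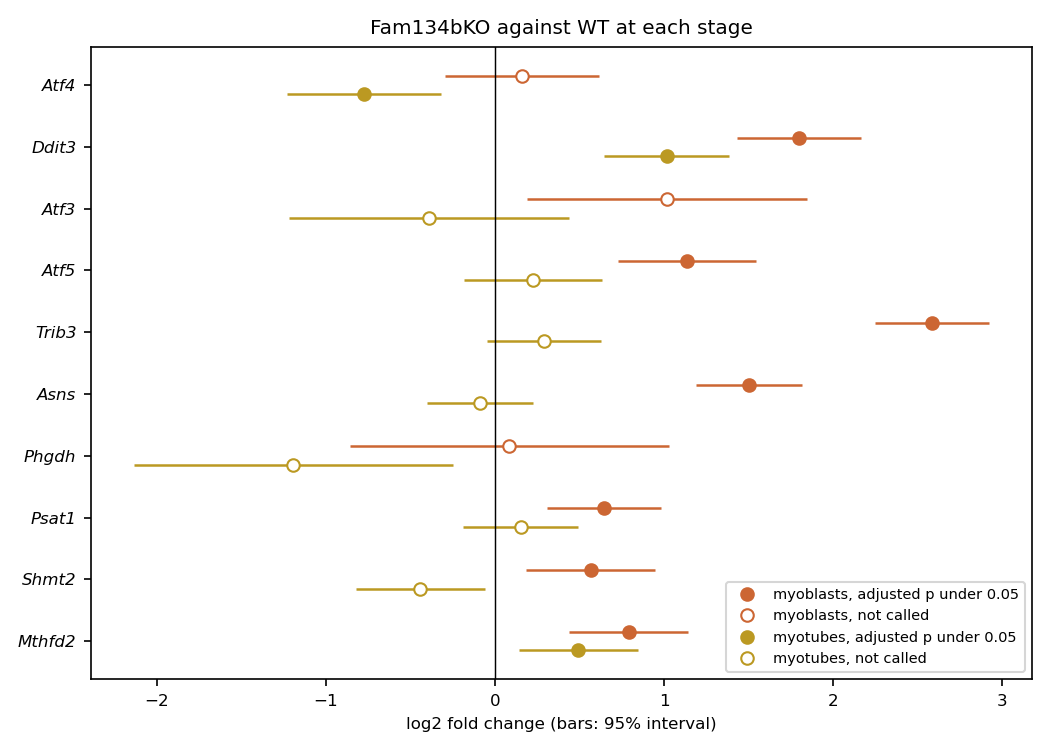
Log2 fold change of each member between Fam134bKO and WT, in myoblasts (orange) and in myotubes (ochre), with bars for the 95% interval and filled points for an adjusted p under 0.05. All 10 points for myoblasts lie above 0, from 0.08 for Phgdh to 2.58 for Trib3, while those for myotubes lie between -1.19 and 1.02.

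The change on differentiation was then followed in each genotype. In WT cells 5 members rose from myoblasts to myotubes and 0 fell, against 23.0% of all genes tested (13.8% higher and 9.16% lower). They were Trib3 (1.75), Atf3 (1.57), Atf5 (0.85), Asns (0.62) and Ddit3 (0.53). In Fam134bKO cells 0 members rose and 6 fell, against 33.4% of all genes tested (16.1% lower). They were Phgdh (-2.47), Asns (-0.97), Shmt2 (-0.80), Trib3 (-0.55), Mthfd2 (-0.48) and Psat1 (-0.44). Trib3 and Asns passed the test in both genotypes, in opposite directions. At an unadjusted p under 0.05 there were 6 rises and 1 fall in WT, with Atf4 and Phgdh added, and 0 rises and 6 falls in Fam134bKO, and limma voom gave 5 rises and 1 fall, then 0 and 6. Over the 10 members the median change was 0.51 in WT and -0.46 in Fam134bKO, beside -0.01 and -0.02 over all genes tested. In WT, samples of the stages were fully separated upward for 4 members and downward for 1, beside 16.1% and 12.0% of genes tested (28.0% in either direction). In Fam134bKO they were fully separated downward for 5, beside 13.1% of genes tested (27.4% in either direction). These comparisons share samples with those between the genotypes, so their values are given side by side and are not independent.

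The difference between these changes was tested as the interaction of genotype and differentiation. All 10 members had a negative value, the change in Fam134bKO lying below that in WT, and 3 of them passed the test: Trib3 (a difference between the log2 fold changes of -2.29, SE 0.23, adjusted p = 1.39e-06), Asns (-1.59, SE 0.21, adjusted p = 7.18e-05) and Shmt2 (-1.01, SE 0.26, adjusted p = 0.0330). Over all genes tested 3.45% were called, 1.48% with a negative value and 1.97% with a positive one, and the median was -0.04 against -0.97 over the members. An unadjusted p under 0.05 was reached by 8 members, all with a negative value, and limma voom called 3. The call of Shmt2 was fragile. It was lost without any one of 10 of the 16 samples (WT myoblast replicates 2, 3 and 4, WT myotube replicates 1 and 2, Fam134bKO myoblast replicates 1, 2 and 4 and Fam134bKO myotube replicates 3 and 4), with adjusted p from 0.0509 to 0.0799 and values from -1.05 to -0.87. Atf5 (-0.91, adjusted p = 0.0777) passed without Fam134bKO myoblast or myotube replicate 2 (adjusted p = 0.0150 to 0.0498), and Ddit3 (-0.78, adjusted p = 0.0973) without WT myotube replicate 4 (adjusted p = 0.0466).

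**Figure D2:**
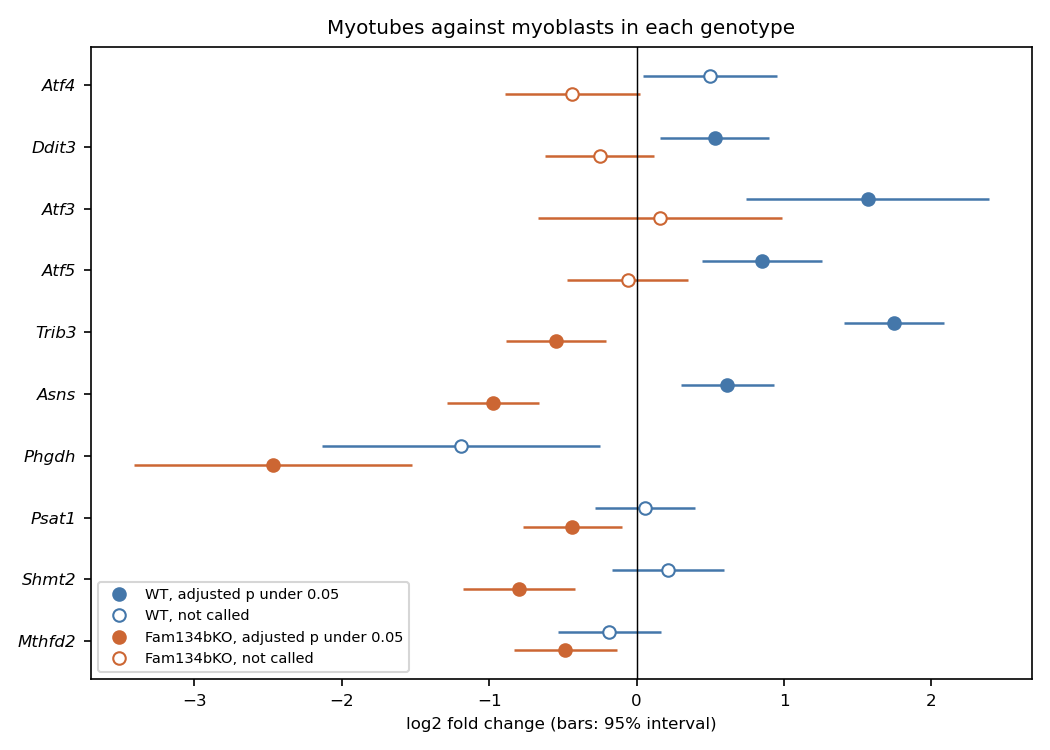
Log2 fold change of each member from myoblasts to myotubes in WT (blue) and in Fam134bKO (orange), with bars for the 95% interval and filled points for an adjusted p under 0.05. The orange point lies left of the blue point for all 10 members, and the gap is widest for Trib3, from 1.75 in WT to -0.55 in Fam134bKO.

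Among the transcription factors, Atf4 mRNA was counted from many reads in every sample. Its level was 5367, 3422, 4665 and 6550.2 in WT myoblasts and at 5974, 4503, 5765 and 5605 in Fam134bKO myoblasts, in the order of the replicates. The Fam134bKO samples lay within the range of the WT samples, and the difference had an interval of -0.30 to 0.61 on the log2 scale (log2 fold change 0.16, SE 0.22, adjusted p = 0.711). In myotubes Atf4 was at 5751, 6993, 9157 and 6043 in WT and at 4094, 5306, 3455 and 3469 in Fam134bKO, where all 4 samples were below the WT samples. Atf4 was thus lower in Fam134bKO myotubes (log2 fold change -0.77, SE 0.22, adjusted p = 0.0140), but the call rested on WT myotube replicate 3, the highest of the 16 samples, without which the adjusted p was 0.0629 and the value -0.64. The change on differentiation did not pass the test in WT (0.50, adjusted p = 0.107) or in Fam134bKO (-0.43, adjusted p = 0.133).

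Ddit3, which encodes the factor CHOP and is a target of ATF4, separated the genotypes at both stages. Its level was 335, 235, 299 and 379 in WT myoblasts and 966, 1205, 1055 and 1070.3 in Fam134bKO myoblasts. Every Fam134bKO sample was above every WT sample, with means of 1074 ± 98.8 and 312 ± 60.6 (log2 fold change 1.80, SE 0.18, adjusted p = 1.32e-07). In myotubes it was at 414, 503, 573 and 327 in WT and at 906, 1002, 796 and 907 in Fam134bKO, again with no overlap (log2 fold change 1.02, SE 0.18, adjusted p = 2.95e-04). Ddit3 rose on differentiation in WT (0.53, adjusted p = 0.0352), where the samples of the stages overlapped, and this call was lost without WT myoblast replicate 2 or 3 or WT myotube replicate 1, 2 or 3 (adjusted p 0.0525 to 0.128). In Fam134bKO the value was -0.25, adjusted p = 0.291.

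Atf3, another bZIP factor of the response, was near the limit of detection, at 4 to 5 reads per sample in WT myoblasts and 10 to 25 in WT myotubes. Its normalised counts were 4.61, 3.86, 4.00 and 4.46 in WT myoblasts and 20.7, 9.00, 23.2 and 9.91 in WT myotubes. All 4 myotube samples were above the myoblast samples, with replicates 1 and 3 well above the other two, and Atf3 rose on differentiation in WT (log2 fold change 1.57, SE 0.40, adjusted p = 0.00713). In Fam134bKO it was at 8.75, 7.47, 13.9 and 9.18 in myoblasts and 9.68, 8.76, 19.8 and 7.99 in myotubes, all above the WT myoblasts. None of its other comparisons passed the test, with values of 1.02, adjusted p = 0.0913 between the myoblasts and -0.39, adjusted p = 0.517 between the myotubes. Between the myoblasts it was called in the alternatives with sample weights and with only the samples compared (limma adjusted p = 0.00730 and 0.0188). At these low counts the added 1 in log2(normalised count + 1) makes the change look smaller than the ratio of the counts.

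Atf5, whose mRNA like that of Atf4 is translated more when eIF2alpha is phosphorylated, was at 725, 447, 656 and 681 in WT myoblasts and 958, 1183, 1356 and 999.6 in WT myotubes. The stages did not overlap, and Atf5 rose (log2 fold change 0.85, SE 0.20, adjusted p = 0.00371). In Fam134bKO it was at 1563, 1125, 1496 and 1286 in myoblasts and 1231, 1907, 1089 and 1119 in myotubes. The Fam134bKO myoblasts were all above the WT myoblasts (log2 fold change 1.14, SE 0.20, adjusted p = 2.31e-04), and their samples overlapped with the Fam134bKO myotubes (-0.06, adjusted p = 0.842). Between the myotubes the value was 0.22, adjusted p = 0.446, with an interval of -0.19 to 0.63.

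Trib3, a pseudokinase that ATF4 and CHOP induce and that restrains ATF4, had the largest difference of the 10 members between the myoblasts. It was at 142, 138, 113 and 135 in WT myoblasts and 683, 922, 757 and 830.1 in Fam134bKO myoblasts. The groups stood far apart, at 132 ± 12.9 and 798 ± 102 (log2 fold change 2.58, SE 0.16, adjusted p = 9.35e-11). In myotubes it was at 453, 381, 572 and 391 in WT and 513, 492, 515 and 669 in Fam134bKO, and these overlapped (0.29, adjusted p = 0.205). Its level rose on differentiation in WT (log2 fold change 1.75, SE 0.16, adjusted p = 9.00e-08) and fell in Fam134bKO (log2 fold change -0.55, SE 0.16, adjusted p = 0.0131), with no overlap of the stages in either. Fam134bKO myotube replicate 4 stood above the other 3 of its group and was the shallowest library of the 16.

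Asns, the enzyme that makes asparagine from aspartate and a standard target of ATF4, had a larger difference between the myoblasts than any member other than Trib3 and Ddit3. It was at 469.7, 435, 472 and 485 in WT myoblasts and 1404, 1189.5, 1398 and 1297 in Fam134bKO myoblasts. The lowest Fam134bKO sample was far above the highest WT sample (log2 fold change 1.50, SE 0.15, adjusted p = 1.70e-07). In myotubes it was at 736, 797, 791 and 559 in WT and 596, 763, 767 and 581 in Fam134bKO, within the same range (-0.09, adjusted p = 0.719, interval -0.40 to 0.23). Asns rose on differentiation in WT (log2 fold change 0.62, SE 0.15, adjusted p = 0.00557) and fell in Fam134bKO (log2 fold change -0.97, SE 0.15, adjusted p = 4.18e-05), and in both the samples of the stages were fully separated.

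**Figure D3:**
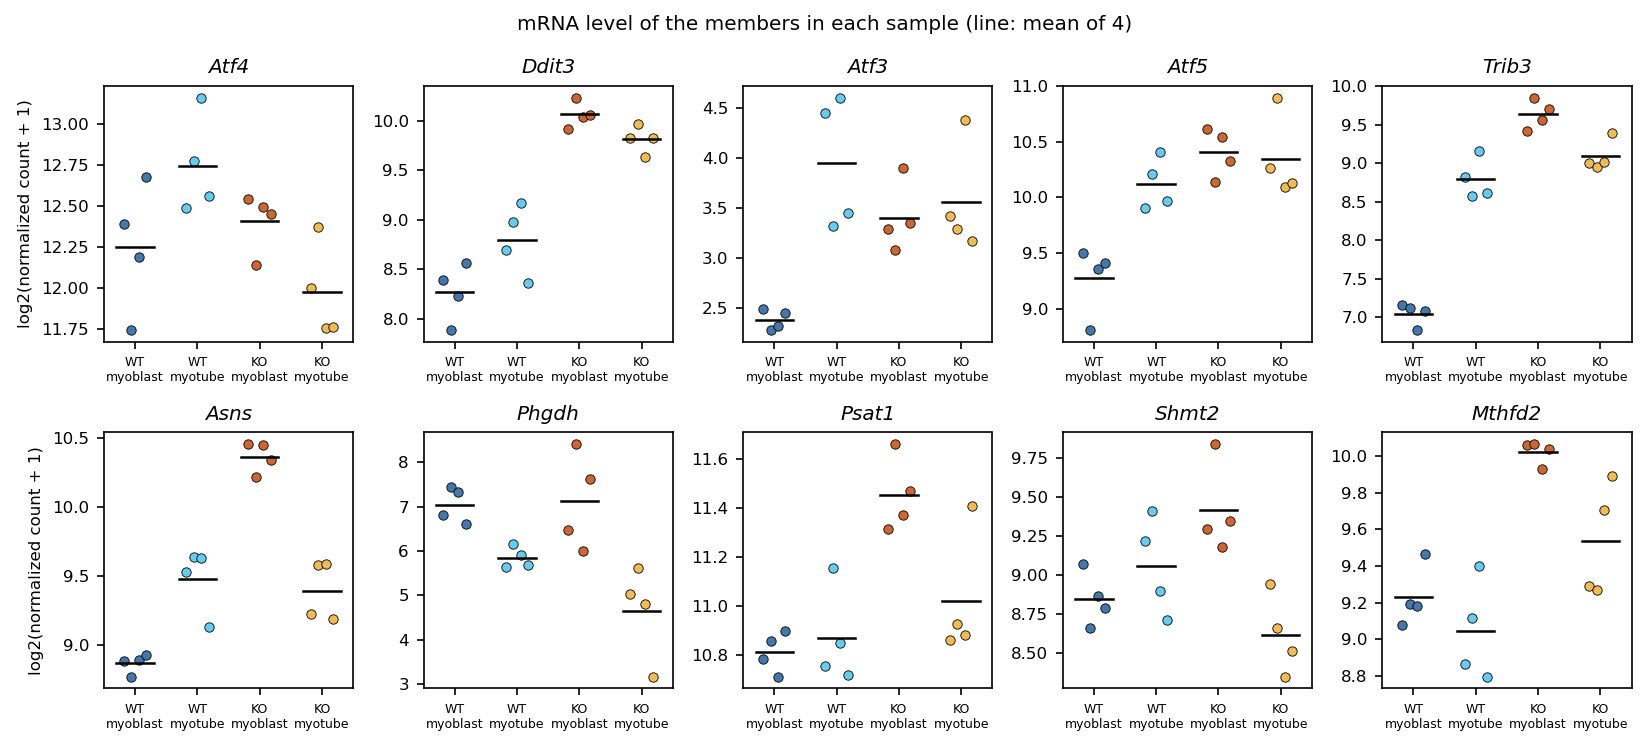
Level of each member in each of the 16 samples, as log2 of the normalised count plus 1, with 1 point per sample and a line for the mean of 4. The axes differ between panels. Trib3, Asns and Ddit3 have all Fam134bKO myoblasts (orange) above all WT myoblasts (dark blue), and Phgdh has its widest spread in Fam134bKO.

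Phgdh encodes the enzyme of the entry step of serine synthesis, and it varied widely within the Fam134bKO groups. It was at 111, 173, 159 and 96.2 in WT myoblasts and 87.5, 339.5, 63.3 and 196 in Fam134bKO myoblasts, where replicate 2 was several times replicate 3. The coefficient of variation was 73.4% in Fam134bKO myoblasts, and the interval of the difference between the myoblasts ran from -0.86 to 1.03 (0.08, adjusted p = 0.937). In myotubes Phgdh was at 49.2, 70.2, 59.5 and 50.5 in WT and 31.9, 48.2, 27.0 and 7.99 in Fam134bKO, the latter from 4 to 33 reads. Phgdh fell on differentiation in Fam134bKO (log2 fold change -2.47, SE 0.45, adjusted p = 2.59e-04), and the difference in WT, where all myotubes were below all myoblasts, missed the threshold (-1.19, adjusted p = 0.0626). Likewise all Fam134bKO myotubes were below all WT myotubes without passing the test (-1.19, adjusted p = 0.0611), and without Fam134bKO myotube replicate 2 the adjusted p was 0.0196. With the replicate number as a block both were called (adjusted p = 0.0363 and 0.0355). Apart from leaving out single samples, the fall in WT was called in 6 of 11 alternative settings (limma adjusted p 5.37e-04 to 0.0916). The difference between the myotubes was called in 1 of 12. The last 500 bases of its transcript share 55.1% of their 31-base stretches with other genes, so its counts are uncertain. For the other members this share was at most 4.61%.

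Psat1, the next enzyme of serine synthesis, was at 1761, 1851, 1673 and 1903 in WT myoblasts and 2544, 3242, 2649 and 2837 in Fam134bKO myoblasts. The groups did not overlap (log2 fold change 0.64, SE 0.16, adjusted p = 0.00776). In WT myotubes it was at 1723, 2279.5, 1840.1 and 1682, an interval of -0.28 to 0.39 for the change from WT myoblasts, and in Fam134bKO myotubes at 1857, 1945, 1886 and 2718. The last of these, replicate 4, was above 2 of the Fam134bKO myoblasts while the other 3 were below all of them. The fall in Fam134bKO (-0.44, adjusted p = 0.0435) was lost without any one of the 4 Fam134bKO myoblast samples or of myotube replicates 1, 2 and 3 (adjusted p 0.0545 to 0.108).

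Shmt2, the mitochondrial enzyme that moves a carbon unit from serine to folate, was at 537, 403, 464 and 441 in WT myoblasts and 626, 913, 578 and 648 in Fam134bKO myoblasts. The groups were separated by a narrow gap, and replicate 2 was the highest of the 16 samples (log2 fold change 0.57, SE 0.18, adjusted p = 0.0385). This call was lost without WT myoblast replicate 2, 3 or 4 or Fam134bKO myoblast replicate 1, 2 or 4 (adjusted p 0.0582 to 0.134). In myotubes Shmt2 was at 594, 678, 476 and 418 in WT and 491, 404, 325 and 364 in Fam134bKO. These overlapped (-0.44, adjusted p = 0.0874), and without Fam134bKO myotube replicate 1 the difference passed the test (adjusted p = 0.0443). Shmt2 fell on differentiation in Fam134bKO (log2 fold change -0.80, SE 0.18, adjusted p = 0.00219), where the stages did not overlap, and in WT the value was 0.21, adjusted p = 0.431.

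Mthfd2, which takes the next mitochondrial folate steps, was at 539.8, 583, 580.4 and 706 in WT myoblasts and 1066, 1069, 972 and 1048 in Fam134bKO myoblasts. The Fam134bKO myoblasts were tightly grouped, with a coefficient of variation of 4.39%, above all WT samples (log2 fold change 0.79, SE 0.17, adjusted p = 0.00187). In myotubes it was at 466, 553, 676 and 444 in WT and 624, 616, 834 and 947 in Fam134bKO. These overlapped, and the call between them (0.49, adjusted p = 0.0385) was lost without WT myotube replicate 1 or 4 or Fam134bKO myotube replicate 3 or 4 (adjusted p 0.0881 to 0.131) and without both shallow Fam134bKO myotube libraries, replicates 2 and 4 (adjusted p = 0.102). The stages did not overlap in Fam134bKO, yet the fall on differentiation (-0.48, adjusted p = 0.0317) was lost without Fam134bKO myoblast replicate 1, 2 or 4 or myotube replicate 1 or 2 (adjusted p 0.0565 to 0.0986). In WT the value was -0.18, adjusted p = 0.463.

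Ordered by group mean, Fam134bKO myoblasts were the highest group for 8 members and WT myotubes for Atf4 and Atf3. WT myoblasts were the lowest group for Ddit3, Atf3, Atf5, Trib3, Asns and Psat1, Fam134bKO myotubes for Atf4, Phgdh and Shmt2, and WT myotubes for Mthfd2. Neighbouring groups in these orders overlapped in their samples except at 1 step for Ddit3, Atf3, Atf5 and Mthfd2 and 2 steps for Trib3, Asns and Phgdh. Within groups the same library was often at an end of the range. WT myoblast replicate 2 had the lowest level of 6 members, WT myotube replicate 3 the highest of 6, and Fam134bKO myoblast replicate 2 the highest of 6 and the lowest of 4.

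The other genes of the pathway were taken from 7 lists with 113 genes tested, also chosen with earlier results of these data known. Between the myoblasts 30 of them were higher in Fam134bKO and 8 lower, or 26.5% and 7.08%, beside 7.26% and 8.50% of all genes tested. The median log2 fold change over the 113 was 0.27, and that over all genes tested -0.01. The share that was lower lay near the background. Enzymes of amino acid synthesis outside the serine pathway gave 4 higher and 0 lower of 14, led by Pycr1, which makes proline (2.12, adjusted p = 7.90e-09), and Pck2, the mitochondrial phosphoenolpyruvate carboxykinase (1.63, adjusted p = 7.34e-07). Of 13 serine, glycine and one-carbon enzymes 5 were higher, among them the mitochondrial folate enzymes Aldh1l2 (2.19, adjusted p = 5.74e-08) and Mthfd1l (1.06, adjusted p = 0.00308) and Psph, which completes serine synthesis (0.77, adjusted p = 0.0121). The 2 that were lower, Shmt1 (-0.71, adjusted p = 0.0201) and Tyms (-0.69, adjusted p = 0.00807), act in the cytosolic branch and in thymidylate synthesis.

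Amino acid transporters gave 4 higher and 0 lower of 12 between the myoblasts, beside 7.26% and 8.50% of all genes tested. Slc7a11, the cystine importer, was at 40.9 ± 13.9 against 11.8 ± 6.04 (1.79, adjusted p = 0.00586), and Slc6a9, a glycine transporter, had a value of 1.48, adjusted p = 1.93e-04. Of the 20 cytosolic aminoacyl-tRNA synthetases, which load tRNAs with amino acids, 7 were higher and 0 lower, with Lars (1.12, adjusted p = 0.00330) and Eprs (1.12, adjusted p = 2.94e-04) at the top, and the median of the 20 was 0.46. The summed level of the 20 was 13609 to 16446 in Fam134bKO myoblasts and 9429.6 to 10270.5 in WT myoblasts, without overlap. At an unadjusted p under 0.05, 6 transporters, 10 synthetases and 5 of the other amino acid enzymes were higher and 0 of these lists lower.

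Stress outputs and secreted factors moved both ways between the myoblasts, with 8 higher and 5 lower of 23. These were 34.8% and 21.7%, beside 7.26% and 8.50% of all genes tested. Higher were the secreted factor Gdf15 (1.90, adjusted p = 0.00224), Sesn2, which restrains mTORC1 (1.53, adjusted p = 7.78e-06), and Chac1, which degrades glutathione (1.45, adjusted p = 4.59e-06). Ddit4, another inhibitor of mTORC1, had a value of 0.59, adjusted p = 0.204, and Ppp1r15a, which directs the dephosphorylation of eIF2alpha, had -0.21, adjusted p = 0.835 at 16.5 ± 6.06 against 20.6 ± 10.3. Lower were Pmaip1, a pro-apoptotic BCL2 family gene, with 0 to 1 reads per Fam134bKO myoblast sample against 24 to 36 in WT (adjusted p = 3.48e-07), and Stc2, with no read against 7 to 12 (adjusted p = 6.36e-05). Setting the genes without a measurable level to 3 reads left the median of this list at 0.35. Among the eIF2alpha kinases, phosphatase subunits and translation factors 1 of 17 was higher (5.88%), Eif4ebp1, which binds eIF4E (0.76, adjusted p = 0.0152). Of 14 bZIP partners Cebpb was higher (1.16, adjusted p = 0.00157) and Jun lower (-0.60, adjusted p = 0.0261), 7.14% each way. Of 18 targets of the ATF6 and IRE1 branches, which raise ER chaperones, 1 was higher (5.56%), Edem1 (0.90, adjusted p = 0.00941). None of the 18 was lower, and their median was -0.21. In the eIF2alpha list, the bZIP list and the ATF6 and IRE1 list the shares that were higher lay near the 7.26% of all genes tested. The values of these lists therefore describe single genes and not the lists.

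**Figure D4:**
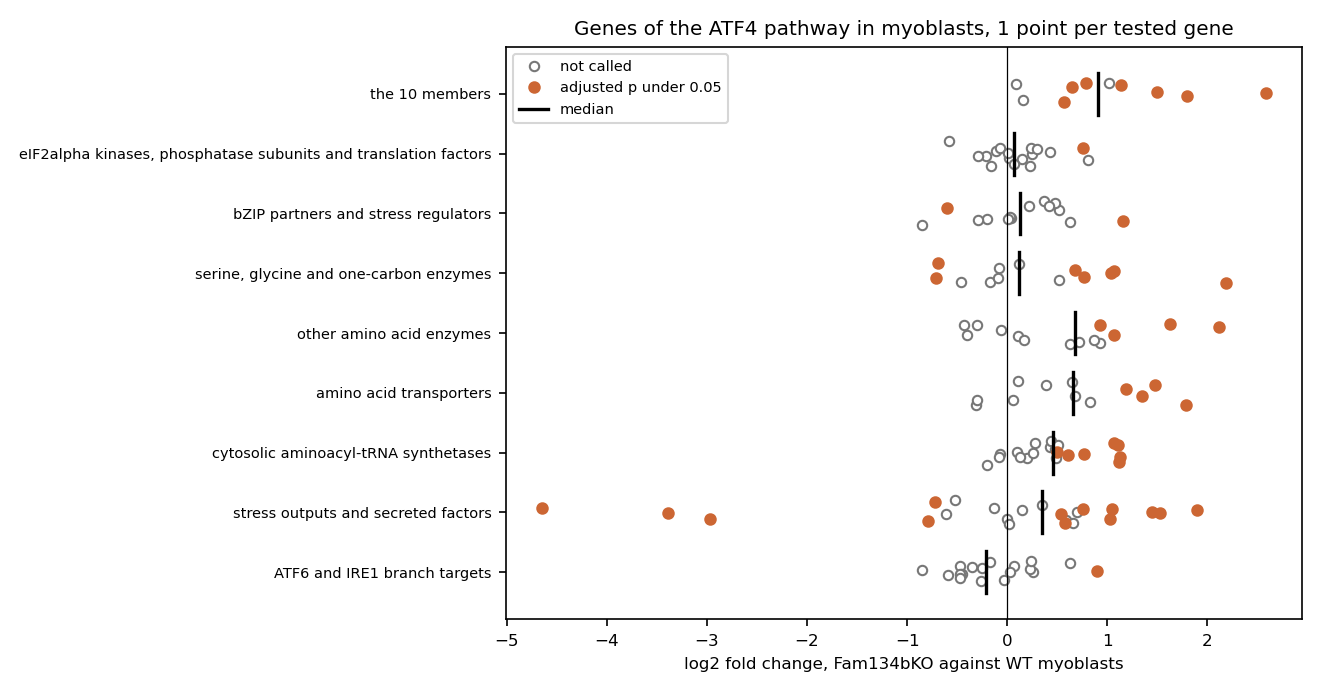
Log2 fold change between Fam134bKO and WT myoblasts for the 10 members and the tested genes of each list, 1 point per gene, filled where the adjusted p was under 0.05, with a bar at the median. The median of the members is 0.90 and that of the ATF6 and IRE1 branch targets -0.21. The 3 points furthest left, Pmaip1, Stc2 and Vldlr, had at most 1 read per Fam134bKO myoblast sample, so their position depends on the added 1.

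In myotubes 13 of the 113 were higher in Fam134bKO and 17 lower, or 11.5% and 15.0%, shares near the 9.74% and 13.7% of all genes tested. The median over the 113 was -0.05, beside -0.07 over all genes tested, so the values that follow describe single genes and not the lists. Without WT myotube replicate 4 the calls numbered 19 in place of 30. Pycr1 (0.98, adjusted p = 3.66e-04), Sesn2 (0.85, adjusted p = 0.00393) and Cebpb (0.67, adjusted p = 0.0474) were higher, as they were in myoblasts, and so was Impact, an inhibitor of the eIF2alpha kinase GCN2 (1.12, adjusted p = 9.88e-04). Psph was lower (-0.71, adjusted p = 0.0161), and so were Slc7a1, a transporter of cationic amino acids (-1.09, adjusted p = 0.00393), and the synthetases Yars (-0.57, adjusted p = 0.00730) and Dars (-0.47, adjusted p = 0.0461). For Aldh1l2 (0.06, adjusted p = 0.876), Pck2 (0.07, adjusted p = 0.810), Chac1 (-0.05, adjusted p = 0.871), Gdf15 (0.12, adjusted p = 0.863) and Slc7a11 (-0.32, adjusted p = 0.644) no difference was called. Fgf21, a hormone that stressed muscle secretes, was at 20 to 88 reads per sample in WT myotubes and 0 to 20 in Fam134bKO myotubes (adjusted p = 0.0135), and at no more than 2 in the myoblasts of either genotype. Of the ATF6 and IRE1 branch targets 1 was higher, the chaperone gene Calr (0.93, adjusted p = 0.0296), and 3 were lower, among them Hsp90b1 (-1.25, adjusted p = 0.0245) and Atf6 itself (-0.98, adjusted p = 0.0262).

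On differentiation of WT cells 29 of the 113 rose and 8 fell, or 25.7% and 7.08%, beside 13.8% and 9.16% of all genes tested. In Fam134bKO cells 17 rose and 24 fell, or 15.0% and 21.2%, shares near the 17.3% and 16.1% of all genes tested. Transporters gave 6 rises and no fall of 12 in WT (50%) and 4 rises and no fall in Fam134bKO (33.3%). They were led in WT by Slc7a5, which carries large neutral amino acids (1.71, limma adjusted p = 3.06e-04), and Slc6a9 (1.64, adjusted p = 8.16e-05). Stress outputs gave 13 rises and no fall of 23 in WT (56.5%) and 9 rises and 2 falls in Fam134bKO (39.1% and 8.7%). Among those that rose in WT were Gdf15 (1.81, adjusted p = 0.00325), Sesn2 (0.98, adjusted p = 0.00139) and Chac1 (0.95, adjusted p = 8.08e-04). Gpt2, which makes alanine, rose in WT (1.46, adjusted p = 9.66e-05). Of the 13 serine, glycine and one-carbon enzymes 2 rose and 5 fell in WT (15.4% and 38.5%). In Fam134bKO 1 rose and 8 fell (7.69% and 61.5%), and the medians in WT and Fam134bKO were -0.63 and -0.61. Gcat, an enzyme of threonine breakdown, fell in both (-1.49, adjusted p = 4.48e-05 in WT and -2.34, adjusted p = 4.40e-08 in Fam134bKO). Of the 20 synthetases 3 rose and 1 fell in WT (15% and 5%), shares near the 13.8% and 9.16% of all genes tested. In Fam134bKO 0 rose and 5 fell (25%, beside 16.1%), among the latter Vars (-0.68, limma adjusted p = 0.0419). Of 10 proliferation genes, 7 were lower in WT and 10 in Fam134bKO myotubes than in the myoblasts of the same genotype (9.16% and 16.1% of all genes tested). Their part in these values was not tested. Targets of the ATF6 and IRE1 branches gave 7 rises and 1 fall of 18 in WT (38.9% and 5.56%) and 9 and 2 in Fam134bKO (50% and 11.1%). Dnajb9, an ER co-chaperone (1.37, limma adjusted p = 0.00278), led in WT and Calr (1.78, adjusted p = 1.20e-04) in Fam134bKO.

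The interaction was negative and called for 10 of the 113 genes (8.85%, beside 1.48% of all genes tested) and positive and called for 0. They included Aldh1l2 (-2.13, adjusted p = 7.80e-05), Psph (-1.48, adjusted p = 0.00467), Pck2 (-1.55, adjusted p = 7.99e-04), Gpt2 (-1.25, adjusted p = 0.0330), Chac1 (-1.50, adjusted p = 0.00128), Wars (-0.86, adjusted p = 0.0445) and Yars (-0.85, adjusted p = 0.0250). Herpud1, a gene of ER-associated degradation, was also among them (-1.38, adjusted p = 0.0305), and 0 of the 18 ATF6 and IRE1 branch targets were called (1 at an unadjusted p under 0.05). Leaving out 1 sample gave 6 to 16 calls among the 113, with 6 without WT myoblast replicate 2 or Fam134bKO myoblast replicate 4 and 16 without Fam134bKO myotube replicate 2.

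**Figure D5:**
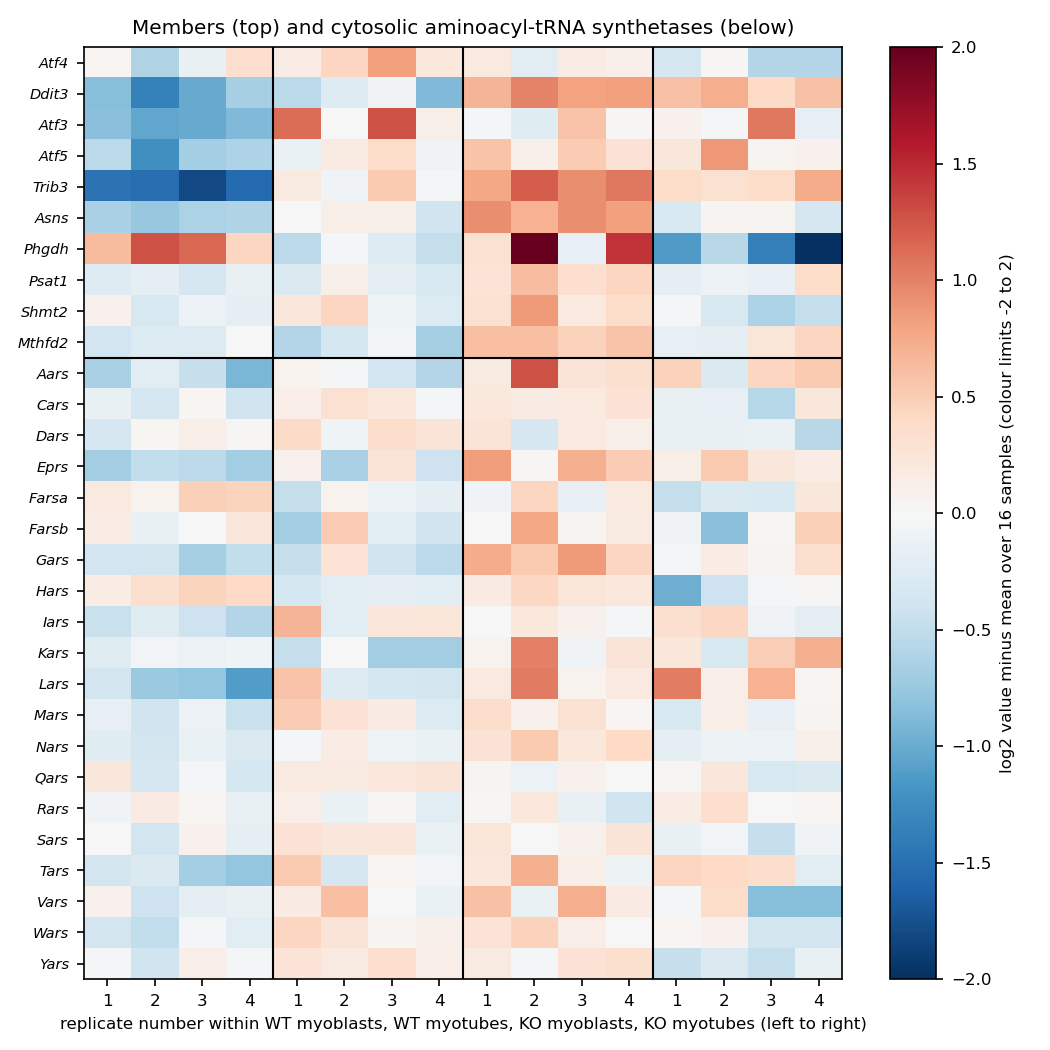
Log2 value of the 10 members (above the line) and of the 20 cytosolic aminoacyl-tRNA synthetases (below it) in the 16 samples, each centred on its mean, with red for higher and blue for lower and colour limits at -2 and 2. Trib3, Ddit3 and Asns are blue in all 4 WT myoblasts and red in all 4 Fam134bKO myoblasts, and Phgdh is blue in all 4 Fam134bKO myotubes.

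Members were compared with each other and with all other tested genes by the root mean square difference of their centred log2 values over the 16 samples, a description in which all genes share the libraries. The most alike members were Mthfd2 and Psat1 (0.224), followed by Psat1 and Shmt2 (0.320), and the least alike were Phgdh and Trib3 (1.75). Outside the members the closest gene was Pycr1 for Ddit3 (0.268) and for Trib3 (0.393), and Pck2 for Asns (0.202). Aldh1l2 was the third closest to Trib3 (0.438), and Nars, the asparaginyl-tRNA synthetase, the second closest to Psat1 (0.138), after Stau1 (0.134). Atf4 was closest to Dnajc4 (0.183) and Flot2 (0.192), Shmt2 to Dhodh (0.202), Mthfd2 to Glipr2 (0.191), Atf5 to Ppp1r9b (0.229), Atf3 to Cyb5r1 (0.324) and Phgdh to Gm10260 (0.515).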

How the data were processed

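The transcriptome of 16 C2C12 samples (4 groups of 4, named from the sample titles) was sequenced as single-end reads with a commercial digital mRNA service. Per the submitters' processing notes the authors used bcl2fastq, STAR 2.6.0a, HTSeq and mm10. The authors deposited log2 values of normalised gene counts plus 1, and the tool that normalised them is not given in the sources used here. Taken back to the linear scale, 100% of the values above 0 were whole reads within 0.01, which gave depth (1484750 to 3287461 reads per sample). Here, 10767 of 31053 genes with a normalised count of at least 10 in at least 4 samples entered limma 3.58.1 (R 4.3.3; lmFit on 4 group means, trended eBayes), with calls made where the Benjamini-Hochberg adjusted p was below 0.05. The procedure was tested on simulated counts, with changes planted in the Fam134bKO myoblast group only and the same spread per gene in all groups. Unequal spread between groups was not tested. The rows without a symbol held at most 0.0164% of the reads. The members and lists were chosen with earlier results of these data known. Genes named are the members, up to 2 called genes per list and direction, 9 pathway genes named whatever their values (Slc7a11, Chac1, Sesn2, Ddit4, Ppp1r15a, Psph, Mthfd1l, Fgf21 and Gdf15) and the 3 genes most alike to a member. Replicate numbers came from the titles, and whether they pair samples was checked by the correlation of deviations from group means. As alternatives, the pseudocount was set to 0.5 or 5, the filter was dropped or raised to 50, and other fits used equal totals, quantile or median-ratio scaling, a replicate block, limma voom on the recovered reads, sample weights, only the 8 samples compared, each sample left out and, added after seeing the data, the shallow Fam134bKO myotube replicates 2 and 4 left out together. Negative binomial count tests were not run, and limma voom on the recovered reads was the count-based alternative. Protein data were not used here, and 1 gene that the naming rule gives is not reported here.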

Additional observations from a re-analysis of the deposited data

Results flagged for a closer look

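Of the 40 groups of 4 samples examined (10 members in 4 groups), 3 held a sample that stood apart from the other 3 of its group by Dixon's test, where chance gives about 1 in 20. All 3 were in Fam134bKO myotubes: replicate 3 for Atf3 at 19.8 normalised counts, replicate 4 for Trib3 at 669 and replicate 4 for Psat1 at 2718, each the highest of its group. Replicate 4 was the shallowest of the 16 libraries (1484750 reads).

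The change on differentiation differed between the genotypes for 3 members by the interaction term in limma. As the log2 fold change in Fam134bKO minus that in WT it was -2.29, adjusted p = 1.39e-06 for Trib3, -1.59, adjusted p = 7.18e-05 for Asns and -1.01, adjusted p = 0.0330 for Shmt2. The samples of both stages were fully separated in both genotypes for Trib3 and Asns, upward in WT and downward in Fam134bKO.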

How the results depend on the processing

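Of 1045 values of the 50 member comparisons under the alternatives, 966 kept their direction and their side of the threshold and 11 changed direction, all 11 of values not called in the report. Leaving out each sample gave -0.039 to 0.11 for Psat1 on differentiation of WT, -0.11 to 0.32 for Atf3 and -0.24 to 0.025 for Atf5 on differentiation of Fam134bKO, and -0.012 to 0.30 for Atf4 and -0.34 to 0.46 for Phgdh between the myoblasts. With sample weights Phgdh between the myoblasts was -0.29 and Asns between the myotubes 0.081. Leaving out 1 sample gave 4 to 5 members called on differentiation of WT, 4 to 6 in Fam134bKO, 6 to 7 between the myoblasts, 2 to 4 between the myotubes and 2 to 4 for the interaction, and sample weights gave 5 for the interaction. Without both shallow libraries the counts were 6 in Fam134bKO, 2 between the myotubes and 3 for the interaction. With only the 8 samples compared they were 6 in WT, 4 in Fam134bKO, 8 between the myoblasts and 2 between the myotubes. There the falls of Psat1 and Mthfd2 in Fam134bKO were not called (limma adjusted p = 0.0994 and 0.0577), nor was Mthfd2 between the myotubes (0.133).

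Samples with the same replicate number shared little deviation (mean correlation of deviations 0.033 over 24 same-numbered pairs, from -0.223 to 0.369, against -0.0108 for other pairs). This cannot settle whether they were paired, which the labels do not say. With the replicate block 6, 6, 7, 4 and 3 members were called in the order above, adding Phgdh on differentiation of WT (adjusted p = 0.0363) and between the myotubes (0.0355).

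Over all genes tested, sample weights raised the calls from 2474 to 4683 on differentiation of WT, from 1697 to 3773 between the myoblasts and from 371 to 1221 for the interaction, and among the 113 pathway genes from 37 to 58, from 38 to 61 and from 10 to 26. Only the 8 samples compared gave 2656 between the myoblasts and 1565 (against 2521) between the myotubes. Leaving out 1 sample gave 1564 calls on differentiation of WT without WT myotube replicate 1, 231 to 245 for the interaction without WT myoblast replicate 2, WT myotube replicate 3 or Fam134bKO myoblast replicate 1 or 4, and 19 pathway genes (against 30) between the myotubes without WT myotube replicate 4. The causes were not tested. Atf3 has no value at a minimum of 50. Atf3 (4 to 25 reads per sample) and Phgdh in Fam134bKO myotubes (4 to 33 reads) are limited by depth.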
